A study of Mus musculus with 8 samples.

Results

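The response of Nudt21-deficient macrophages to IFNγ/LPS was described across genes in the 4 Nudt21-cKO samples of a series of 8 RNA-seq samples. The members were chosen by genotype and time alone: 2 cKO samples at 0 h and 2 at 4 h, named replicates 3 and 4 at both times. The cells were bone marrow-derived macrophages (BMDMs), that is, macrophages grown from mouse bone marrow with the growth factor M-CSF, on the C57BL/6 background. The cKO samples came from Nudt21 fl/fl LysM-Cre mice, in which exons 2 and 3 of Nudt21 are flanked by loxP sites and the Cre recombinase is driven by the lysozyme M promoter of myeloid cells. The 4 WT samples, used here to check the deletion and for the last comparison, came from LysM-Cre littermates, so that both genotypes carried the Cre. The 4 h cells received IFNγ at 50 ng/ml overnight and then LPS at 50 ng/ml for 4 h, and the 0 h cells were read as untreated from the sample titles, although the treatment is listed for every sample. Each sample held cells pooled from 2 mice, and the age of the mice is not given in the sources used here. Where p-values are given, they measure the spread between 2 such pools, and a permutation of 2 samples against 2 could not go below p = 0.333. The 2 times were deposited in separate tables, so time and table cannot be told apart.

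IFNγ binds its receptor on macrophages and acts through GAS elements in the promoters of its target genes, which include further factors such as Irf1. LPS, a component of the outer membrane of gram-negative bacteria, is sensed by Tlr4 with Cd14 and Ly96, and signals through Myd88 to NF-κB and AP-1 and through Ticam1 to Irf3 and interferon β. Interferon β then acts back on the cells through its own receptor and the interferon-stimulated response element (ISRE). The combination gives the classical inflammatory macrophage, known for nitric oxide, tumour necrosis factor, IL12 and raised antigen presentation. Nudt21 encodes the RNA-binding subunit of cleavage factor I, which helps to choose where the 3′ end of an mRNA is cut and polyadenylated.

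The deposited value of a gene is its mean read coverage per base, which is a level per length and can be compared between genes. The study reports shorter 3′ untranslated regions of many mRNAs in cKO than in WT cells, Map1lc3b and Ulk2 among them. A shift in mRNA length can change coverage per base without a change in mRNA number. Its part in the values here was not tested. The values of the 4 cKO samples summed to 16650103 and 17744522 at 0 h and 17360205 and 17954882 at 4 h over 21080 gene symbols, but the median deposited value went from 34.3 and 36.4 at 0 h to 14.7 and 14.6 at 4 h. Coverage was therefore divided by a factor per sample that sets the median ratio between samples to 1 (1.35 and 1.45 at 0 h, 0.724 and 0.723 at 4 h), and the term "coverage" below means this scaled coverage. No read counts were analysed here, so that, although the study describes deep paired-end sequencing, the reads behind each value are not known here and no counting interval can be given. The targeted gene, Nudt21 (chr8:94019403-94037039, GRCm38.p6), was listed at 117 and 118 at 0 h and 196 and 159 at 4 h in the cKO samples. On a scale fitted to all 8 samples it was at 110.1 and 111 at 0 h and 181 and 145 at 4 h in cKO, against 518 and 465 at 0 h and 906 and 839 at 4 h in WT. It was therefore lower in every cKO sample than in any WT sample, although coverage of the whole gene also counts the exons that were not deleted. Macrophage markers were high at both times, with Csf1r at 19458 and 20819.5 at 0 h and 18019 and 18413 at 4 h, and the summed coverage of 8 such markers ranged from 92073 to 98065. Of 8 T cell markers, Cd3e, Cd3d, Cd3g, Trac, Cd8a and Cd2 were under 10 in all 4 samples. The other two were not, with Cd4 at 104 and 100.4 at 0 h and 31 and 18.5 at 4 h and Lck at 0.345 and 0.971 at 0 h and 108 and 85.3 at 4 h. Of 8 B cell markers, Ms4a1, Cd79a, Pax5 and Cr2 were under 10 in all 4 samples. The 8 neutrophil markers summed to 17399 and 21354 at 0 h and 25656 and 29705 at 4 h, most of it S100a8 and S100a9, with Ly6g under 10 in every sample. Not all members were higher at 4 h, with Elane at 289 and 307 at 0 h and 124 and 126 at 4 h and Mpo at 218 and 182 at 0 h and 106 and 106 at 4 h. As a share of the summed deposited coverage, the 8 neutrophil markers went the other way, from 0.141% and 0.175% at 0 h to 0.107% and 0.12% at 4 h. The B cell list summed to between 2027 and 2868 in all 4 samples, nearly all of it Blnk and Ighm, and the erythroid, mast cell and stromal lists to between 6.15 and 237. The part of such cells in the results was not tested. In bulk samples, fewer cells of a type and less RNA per cell cannot be told apart.

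Many genes differed between stimulated and unstimulated cKO macrophages. Of 16118 genes tested, 4217 rose and 4220 fell by more than 1.5-fold at an adjusted p under 0.05 (limma on log2 coverage with a pseudocount of 0.1), which is 26.2% in each direction and 52.3% in all. Of these, 893 rose and 584 fell by a log2 change of at least 4. The count depended on single samples, since without 0 h replicate 3 or 4, 2544 and 2574 genes fell and 3301 and 3381 rose. The median difference between replicates was 0.127 on the log2 scale at 0 h and 0.145 at 4 h, against a median difference of 1.1 between the times. The balance between rises and falls depended on the scaling, for large changes too. With each sample set to the same total coverage, the median gene moved by -1.09 instead of -0.08, and 2100 genes rose (12.9%) while 8498 fell (52.4%), which is 65.3% in all. On that scale 651 genes rose and 1064 fell by a log2 change of at least 4, so that the larger count was of falls, and on the deposited scale 661 and 1048. On the first scale the counts of such large changes also depended on the pseudocount and on values of 0. They were 617 rises and 147 falls with a pseudocount of 1. Among genes above 0 in all 4 cKO samples they were 505 and 128. Changes below are on the first scale, and counts with equal totals are given for each list in which they differ in direction.

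The genes that took up the coverage changed with stimulation. The 893 genes that rose by a log2 change of at least 4 took 0.751% and 0.789% of the summed coverage at 0 h and 28.2% and 28.5% at 4 h. The 42 genes of the cytokine and chemokine lists alone went from 0.156% and 0.158% to 9.08% and 9.41%. In the other direction, 29 lysosomal genes went from 9.05% and 8.78% of the coverage to 3.81% and 3.86%, and the ferritin chains Fth1 and Ftl1 from 6.49% and 6.47% to 2.76% and 3.05%. At 0 h the genes with the most coverage were Ftl1, Fth1, the lysosomal proteases Ctsb and Ctsd, Psap and Gpnmb. At 4 h they were Fth1, the MHC class II invariant chain Cd74, B2m, Tnf, Ftl1 and Ccl5, followed by Acod1 and Ccl3. These shares need no scaling between samples, and the times did not overlap for the cytokine and chemokine, lysosomal and ferritin genes. The set of 893 genes was chosen by its change in these samples, so that its share is a description.

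**Figure D1:**
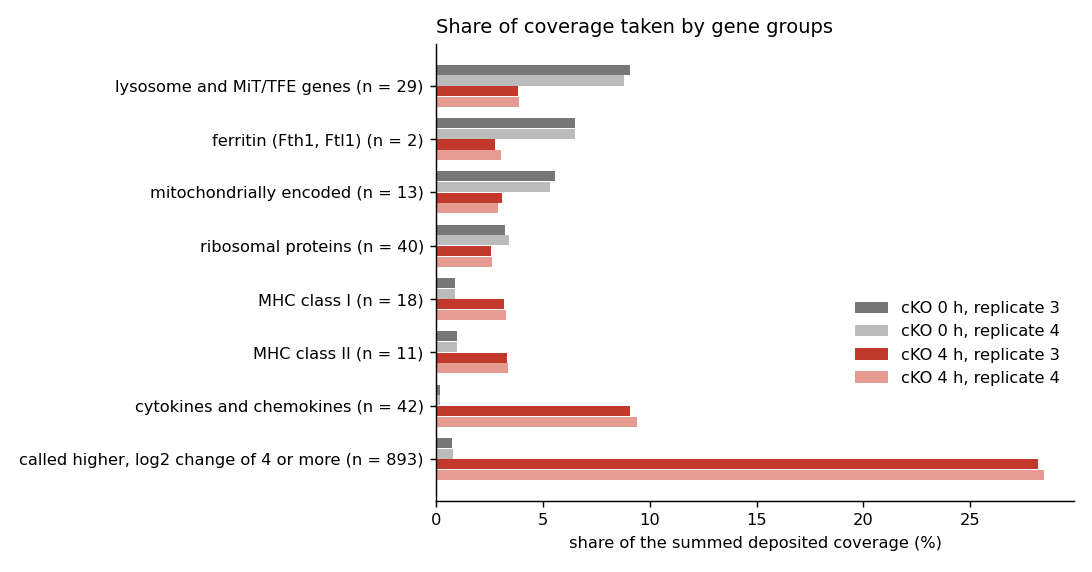
Share of the summed deposited coverage (%, x axis) taken by 8 sets of genes in each of the 4 cKO samples (bars); n is the number of genes in the set. The 893 genes that rose most went from under 1% to over 28% of coverage, and lysosomal, ferritin and mitochondrially encoded genes gave up share; the last set was chosen by its change and is shown as a description.

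The genes with the largest rises were under 10 in both 0 h samples. By fitted change, the 15 largest among genes whose mean coverage reached 10 were Cxcl9, Nos2, Il12b, Serpina3f, Cxcl10, Iigp1, Il6, Ptgs2, Edn1, Ccl12, Il27, Oasl1, Mir155hg, Gbp2b and Cxcl3. Cxcl9, which attracts activated T cells, was at 0 in both 0 h samples and 197954 and 215219 at 4 h. Nos2, the inducible nitric oxide synthase, was at 0 in both 0 h samples and 61741 and 60457 at 4 h. No fold is given for a gene listed at 0 in a whole group. Among genes above 0 in all 4 samples, a ranking chosen after the values were seen, the largest rise was that of Il12b, the subunit shared by IL12 and IL23, which rose from 0.211 and 1.57 to 64351 and 62078 (log2 fold change 16.42, SE 1, adjusted p = 0.00328). Cxcl10, another T cell attractant, rose from 4.36 and 5.7 to 215465 and 226601 (log2 fold change 15.41, SE 0.17, adjusted p = 0.000735). Edn1, the vasoconstrictor endothelin, rose from 0.96 and 0.386 to 11378 and 13046 (log2 fold change 14.05, SE 0.48, adjusted p = 0.00143).

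The largest falls included many unnamed gene models that were listed at 0 after stimulation. The 15 largest by the same rule were Trav7n-4, Gm15513, 5033421B08Rik, Lrrc14b, Galnt9, Trav13n-4, Trav15-3, Lpar5, Trav15d-3, Chp2, Gm15569, Gm32098, Gm26935, Gm43650 and 1190005I06Rik, each at 0 in both 4 h samples. Trav7n-4 was at 165 and 190.1 at 0 h and 0 in both 4 h samples. Lpar5, a receptor for lysophosphatidic acid, was at 66.5 and 67 at 0 h and 0 in both 4 h samples. The Trav genes are variable segments of the T cell receptor with near-identical copies, so their reads are uncertain, and Cd3e, Cd3d and Cd3g were under 10 in all 4 samples. Across both directions, 112 genes were listed at 0 in both 0 h samples and at 10 or more in both 4 h samples, and 49 the other way. None of 144 ribosomal, respiratory, glycolytic, citrate cycle and lysosomal genes was at 0 in any cKO sample. Among genes above 0 in all 4 samples, the largest fall was that of Cd300lb, an activating receptor of myeloid cells, which fell from 2927 and 2955 to 24.2 and 11.6 (log2 fold change -7.45, SE 0.44, adjusted p = 0.0031). Dhrs3, an enzyme that reduces retinaldehyde, fell from 6858 and 6713 to 76.6 and 67.8 (log2 fold change -6.55, SE 0.096, adjusted p = 0.000811). Thbd, the anticoagulant receptor thrombomodulin, fell from 401 and 379 to 6.65 and 5.44 (log2 fold change -5.99, SE 0.14, adjusted p = 0.00102). Hpgd, which degrades prostaglandins, fell from 706 and 558 to 16 and 7.12 (log2 fold change -5.86, SE 0.51, adjusted p = 0.00578). Tmem154, Mamdc2, Cd28, Angptl4, Slco2b1 and Lpin1 fell by log2 changes between -5.81 and -6.36. In each of these genes both 4 h samples lay below both 0 h samples.

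**Figure D2:**
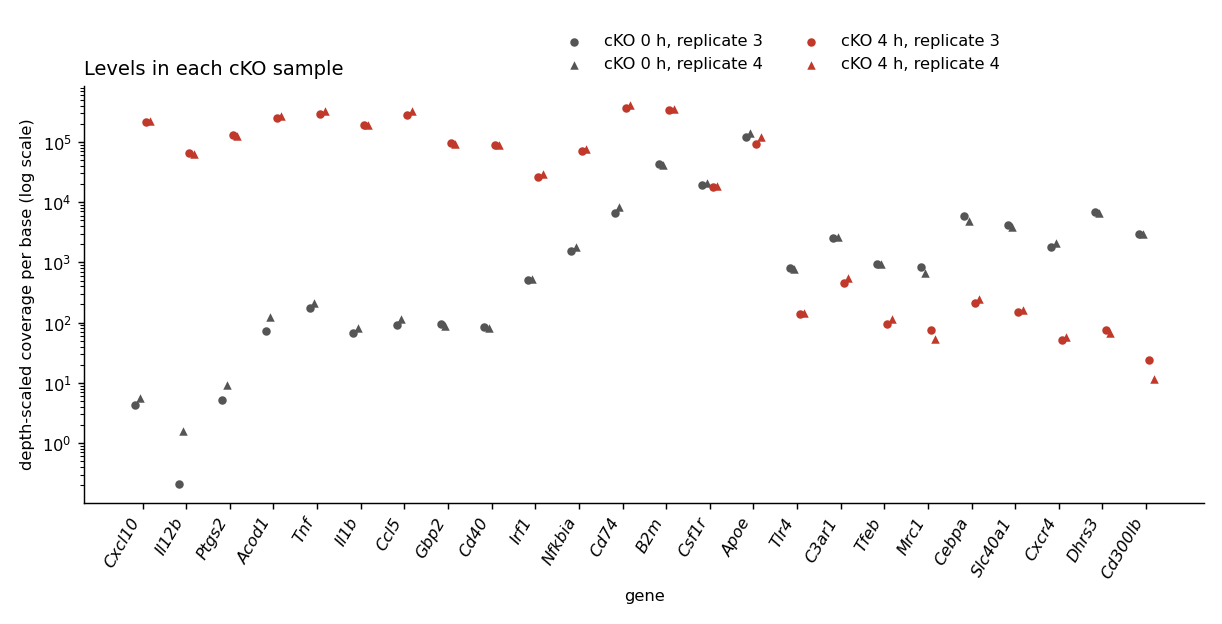
Scaled coverage per base (log axis) of 24 genes in each cKO sample, with 0 h in grey and 4 h in red, circles for replicate 3 and triangles for replicate 4. Replicates lie close together in most genes, Csf1r and Apoe overlap or nearly overlap between times, and the genes to the left rose while those from Tlr4 on fell.

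Gene lists were drawn up by function, 35 lists with 697 tested genes, of which 416 rose, 93 fell and 188 were called in neither direction. The lists were chosen with the stimulus in mind, so these counts are read only against the 26.2% of all genes called in each direction. Counts with equal totals are read against the 12.9% of all genes that rose and the 52.4% that fell on that scale. A list near these shares is not set apart from all genes. In the accounts of single genes, the values are those of replicates 3 and 4 at 0 h and then of replicates 3 and 4 at 4 h, and where a gene is said to have risen or fallen, the groups did not overlap.

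Cytokines rose as a whole list. All 21 cytokine genes rose, with a median log2 change of 10.31, or 9.58 over the 18 that were not listed at 0 in a whole group, where the median over all tested genes was -0.08. Tnf, the main early inflammatory cytokine of macrophages, rose from 174 and 209.9 to 289473 and 327463 (log2 fold change 10.65, SE 0.15, adjusted p = 0.000796) and had the highest 4 h coverage of the list. The pyrogen Il1b rose from 67.6 and 81.7 to 194263 and 187665 (log2 fold change 11.33, SE 0.13, adjusted p = 0.000737). Its relative Il1a, which also acts through the IL1 receptor, rose from 128 and 92.4 to 121858 and 123176 (log2 fold change 10.14, SE 0.21, adjusted p = 0.000911). These 3 genes already had coverage above 60 in both samples before stimulation, whereas Il6, which drives the acute phase response, was at 2.54 and 0 at 0 h and at 16689.6 and 16615 at 4 h (log2 fold change 14.98, SE 2, adjusted p = 0.0127), so that its 0 h level rests on 1 sample. The IL12 family moved together, since Il12a, Il12b, Il23a, Il27 and Ebi3 all rose. Il27 rose from 3.89 and 6.94 to 60677 and 54979 (log2 fold change 13.41, SE 0.35, adjusted p = 0.00109). Ebi3, which pairs with Il27, started high and rose from 478 and 439 to 4098 and 4162 (log2 fold change 3.17, SE 0.081, adjusted p = 0.00108). Ifnb1, interferon β, rose from 0.435 and 0.825 to 5316 and 6709.6 (log2 fold change 13.05, SE 0.36, adjusted p = 0.00118). The growth factors Csf2 and Csf3 and the IL23 subunit Il23a were at 0 in both 0 h samples. At 4 h Csf2 was at 229 and 292, Csf3 at 188 and 206, and Il23a at 755 and 837. Members that restrain inflammation rose as well. Il10 rose from 4.21 and 15 to 3710.2 and 4262 (log2 fold change 8.95, SE 0.76, adjusted p = 0.00558), and its 0 h samples differed more than most. The IL1 receptor antagonist Il1rn rose from 619 and 541 to 49066 and 43654 (log2 fold change 6.32, SE 0.12, adjusted p = 0.000895). The smallest change was that of Osm, which rose from 64.4 and 75.2 to 108 and 123 (log2 fold change 0.73, SE 0.13, adjusted p = 0.0258) but stood at a log2 change of -0.26 with equal totals.

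Chemokines rose in both classes, with a few exceptions. Of 12 CC chemokines, 9 rose and none fell, and with equal totals 9 rose and 1 fell. Ccl5, Ccl3 and Ccl4, which attract monocytes and T cells, reached the highest coverage. Ccl5 rose from 90.2 and 115 to 278616 and 320052 (log2 fold change 11.51, SE 0.18, adjusted p = 0.000825). Ccl3 started higher and rose from 1993 and 2089 to 240631 and 262405 (log2 fold change 6.94, SE 0.085, adjusted p = 0.000745). Ccl4 rose from 650.0 and 599 to 174709 and 190256 (log2 fold change 8.19, SE 0.093, adjusted p = 0.000737). Unlike these, Ccl8 and Ccl12 were at 0 in both 0 h samples, and at 4 h Ccl8 was at 305 and 322 and Ccl12 at 1622 and 1379. Ccl6 (log2 difference -0.69, adjusted p = 0.0614) and Ccl24 (log2 difference 0.1, adjusted p = 0.801) did not pass the test. Ccl17, which attracts helper T cells, was at 0 and 2.75 at 0 h and 16.4 and 15.2 at 4 h and did not pass either (log2 difference 4.9, adjusted p = 0.132). Of 9 CXC and CX3C chemokines, 8 rose and none fell, and with equal totals 8 rose and 1 fell. The neutrophil attractants Cxcl1, Cxcl2 and Cxcl3 were among them, and Cxcl2 was the highest of the 3 at 4 h. Cxcl2 rose from 55 and 59 to 117466 and 140303 (log2 fold change 11.14, SE 0.13, adjusted p = 0.000737), and Cxcl1 rose from 9.52 and 7.31 to 21449 and 25692 (log2 fold change 11.44, SE 0.2, adjusted p = 0.000843). Cxcl14 did not pass the test (log2 difference -0.6, adjusted p = 0.0513). Cxcl11 was not analysed here.

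Receptors for chemokines and other attractants divided. Of 14, 7 rose and 4 fell, and with equal totals 3 rose and 5 fell. Ccrl2, an atypical receptor that binds chemerin, rose from 529.5 and 496 to 31815 and 36338 (log2 fold change 6.05, SE 0.11, adjusted p = 0.000847). The formyl peptide receptor Fpr2, which senses bacterial and mitochondrial peptides, rose from 38.5 and 22.5 to 2881 and 3832 (log2 fold change 6.82, SE 0.37, adjusted p = 0.00269). Ccr7, which guides cells to lymph nodes, rose from 1.83 and 16.4 to 252 and 262 (log2 fold change 5.51, SE 1.3, adjusted p = 0.0426), with 0 h samples that differed widely. The receptors that fell were Cxcr4, Cx3cr1, C3ar1 and Ccr1. Cxcr4, which retains cells in the bone marrow, fell from 1817 and 2124 to 51 and 57.8 (log2 fold change -5.17, SE 0.13, adjusted p = 0.00109). Cx3cr1, the fractalkine receptor, was low at 0 h and fell from 33.9 and 75.8 to 2.16 and 1.29 (log2 fold change -4.84, SE 0.56, adjusted p = 0.0101). C3ar1, the receptor for complement C3a, fell from 2501 and 2604 to 457 and 545 (log2 fold change -2.35, SE 0.12, adjusted p = 0.00259), and Ccr1, another receptor for Ccl3 and Ccl5, fell from 805 and 601 to 402 and 339 (log2 fold change -0.91, SE 0.21, adjusted p = 0.0418).

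The interferon programme rose in every gene tested. All 17 guanylate-binding proteins (GBPs) and immunity-related GTPases, which attack the vacuoles of intracellular pathogens, rose, with a median log2 change of 10. Gbp2 rose from 95.3 and 88.9 to 94821 and 93789.7 (log2 fold change 10, SE 0.074, adjusted p = 0.000643) and Gbp5, which also promotes inflammasome activation, rose from 39.5 and 46.2 to 58912 and 59085 (log2 fold change 10.43, SE 0.11, adjusted p = 0.00072). These were the GBPs with the highest coverage at 4 h among those named here. Gbp4 rose from 3.16 and 9.35 to 20478 and 21398 (log2 fold change 11.88, SE 0.64, adjusted p = 0.00267). The GTPase Iigp1 was at 0 and 0.386 at 0 h and 7725 and 8055 at 4 h (log2 fold change 15.13, SE 0.95, adjusted p = 0.00338). Gbp2b was at 0 in both 0 h samples and at 916 and 1031 at 4 h. The smallest rise was that of Irgm2, a regulator of the other GTPases, which rose from 152 and 193 to 3679.7 and 3749 (log2 fold change 4.44, SE 0.16, adjusted p = 0.00152). Members of these families, such as Tgtp1 and Tgtp2, are close in sequence, and their reads could have been divided between copies. All 30 type I interferon-stimulated genes rose, with log2 changes between 3.29 and 13.29 and a median of 6.29. Oasl1, which restrains translation of Irf7, rose from 3.8 and 6.41 to 49169 and 51618 (log2 fold change 13.29, SE 0.31, adjusted p = 0.00104). Rsad2, an antiviral enzyme, rose from 48.1 and 29.8 to 66103 and 84945 (log2 fold change 10.95, SE 0.33, adjusted p = 0.00125). Ifit1, which binds viral RNA, rose from 12.1 and 6.1 to 8677 and 9338 (log2 fold change 10.01, SE 0.41, adjusted p = 0.00188), and Isg15, a ubiquitin-like modifier, rose from 33.2 and 40 to 21017 and 21982 (log2 fold change 9.2, SE 0.13, adjusted p = 0.000811). With equal totals, 17 of 17 and 30 of 30 genes of these lists rose. Gbp11, Gm12250, Mx1 and Mx2 were not analysed here.

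The promoters of the genes that rose most held matches to the elements named above in a larger share than other promoters, a comparison that was not tested. Windows from 250 bases before to 50 bases after the start site were read from RefSeq (GRCm38.p6) and matched by symbol for 11733 of the 16118 tested genes. The letters searched on both strands were GAAANNGAAA for the ISRE, TTCNNNGAA for GAS, GGGNNTTTCC for κB and TGANTCA for AP-1, and matches to different elements overlapped in 52 of the 27025 genes of the promoter table. An ISRE match was found in 3.99% of those 27025 genes, and in 12% of the 616 genes with a window that rose by a log2 change of at least 4, 6.93% of all genes that rose, 3.19% of genes that did not pass the test and 2.76% of genes that fell. For κB the shares were 1.89%, 4.22%, 3.01%, 1.88% and 1.68%, and for GAS 9.55%, 12.8%, 9.24%, 8.55% and 7.43%, in the same order. For AP-1 they were 8.97%, 14.9%, 8.1%, 6.43% and 6.67%. All 10 GBPs and GTPases with a window held an ISRE match and 6 of them a GAS match, as did 14 and 5 of 24 type I interferon-stimulated genes. Of 7 CXC and CX3C chemokines 3 held a κB match, as did 4 of 13 NF-κB genes and 2 of 14 cytokines. Such a match describes the letters in this window only, and says nothing of binding.

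**Figure D3:**
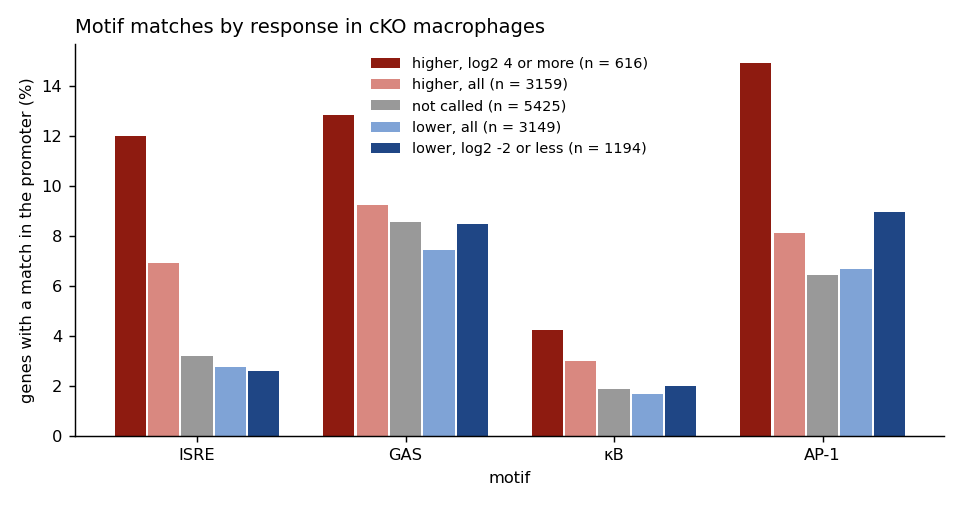
Share of genes (%, y axis) with at least 1 match to each of 4 motifs in the promoter window, for genes grouped by their response in cKO macrophages; n is the number of genes with a window. The share with an ISRE match was 12% in genes that rose most and 2.76% in all genes that fell.

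The following windows show where such matches lie. They were taken from genes that rose, were not at 0 in a whole group and held a match upstream of the start site, in the order of their rise within the lists searched for each motif. Genes with larger rises but no such match in the promoter table, such as Il12b for the κB motif, are therefore not shown. Each is 30 bases on the strand of the gene, 5′ to 3′, with the match in capitals. The first 4 hold an ISRE match and belong to interferon-induced genes, on the gene's own strand in Tgtp1 and on the opposite strand in Rsad2, Gbp5 and Ifit1.
Rsad2, chr12:26456553-26456582, minus strand: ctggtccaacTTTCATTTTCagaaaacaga
Gbp5, chr3:142496759-142496788, plus strand: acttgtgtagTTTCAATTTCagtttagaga
Tgtp1, chr11:48992304-48992333, minus strand: tccaggaatcGAAACTGAAAcctacctgac
Ifit1, chr19:34640794-34640823, plus strand: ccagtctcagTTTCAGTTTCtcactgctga
The ISRE matches began between 77 and 165 bases upstream of the start site, with that of Tgtp1 nearest and that of Gbp5 farthest.

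A κB match is shown for Il6 and the neutrophil attractants Cxcl3, Cxcl1 and Cxcl2, in each case on the gene's own strand.
Il6, chr5:30013060-30013089, plus strand: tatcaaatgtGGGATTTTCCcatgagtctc
Cxcl3, chr5:90786018-90786047, plus strand: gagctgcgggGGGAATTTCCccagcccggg
Cxcl1, chr5:90891164-90891193, plus strand: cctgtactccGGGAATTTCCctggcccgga
Cxcl2, chr5:90903811-90903840, plus strand: cctggtccccGGGCTTTTCCagacatcgtg
These 4 matches began 44 bases upstream of the start site in Il6 and 71 to 78 bases upstream in the 3 chemokines, which lie close together on chromosome 5. The 10 matched letters of Cxcl3 and Cxcl1 were the same.

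A GAS match is shown for Gbp5 and Tgtp1, which also hold an ISRE match, and for the feedback inhibitor Socs3.
Gbp5, chr3:142496872-142496901, plus strand: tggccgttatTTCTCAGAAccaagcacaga
Tgtp1, chr11:48992315-48992344, minus strand: aactagccatTTCCAGGAAtcgaaactgaa
Socs3, chr11:117969501-117969530, minus strand: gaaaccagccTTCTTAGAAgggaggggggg
In Tgtp1 the GAS match ended 80 bases and the ISRE match began 77 bases upstream of the start site, so that the elements lay side by side without overlap.

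Enzymes that make nitric oxide and itaconate rose together with those that supply arginine. Of 9 genes in this list, 6 rose and none fell, and with equal totals 6 rose and 2 fell. Acod1, which makes itaconate from a citrate cycle intermediate, rose from 72.7 and 126 to 251678 and 270606 (log2 fold change 11.41, SE 0.34, adjusted p = 0.00124) and was among the genes with the most coverage at 4 h. The arginine transporter Slc7a2 rose from 138 and 91.5 to 30313 and 25239 (log2 fold change 7.94, SE 0.27, adjusted p = 0.00146). Ass1, which helps to regenerate arginine from citrulline, rose from 42.7 and 53.4 to 3498 and 3348 (log2 fold change 6.16, SE 0.15, adjusted p = 0.00107), and Gch1, which makes the cofactor of Nos2, rose from 371 and 317 to 6835 and 6797 (log2 fold change 4.31, SE 0.11, adjusted p = 0.00109). Asl was not called. Of 13 phagocyte oxidase and redox genes, 8 rose and 1 fell, and with equal totals 6 rose and 4 fell. Cybb, the catalytic subunit of the phagocyte oxidase, rose from 13103 and 13117 to 55620.0 and 57383 (log2 fold change 2.11, SE 0.064, adjusted p = 0.00127). Sod2, the mitochondrial superoxide dismutase, rose from 1650.5 and 1825 to 44806 and 51757 (log2 fold change 4.79, SE 0.12, adjusted p = 0.00108). The cystine transporter Slc7a11, which feeds glutathione synthesis, rose from 337 and 368 to 16101 and 18456 (log2 fold change 5.61, SE 0.12, adjusted p = 0.000911). Hmox1, which breaks down haem, was the member that went the other way and fell from 5366 and 6239.5 to 2309.9 and 2548 (log2 fold change -1.25, SE 0.12, adjusted p = 0.00743).

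Prostanoid and leukotriene genes moved in both directions. Of 10, 4 rose and 5 fell, and with equal totals 3 rose and 6 fell. Of the genes on the route from arachidonic acid to prostaglandin E, Pla2g4a, Ptgs2 and Ptges rose and Ptgs1 fell. Pla2g4a, the phospholipase that releases arachidonic acid, rose from 95.2 and 90.4 to 1590.1 and 1564 (log2 fold change 4.09, SE 0.069, adjusted p = 0.000843). The inducible cyclooxygenase Ptgs2 rose from 5.13 and 9.28 to 130856 and 127051 (log2 fold change 14.17, SE 0.36, adjusted p = 0.00107), and Ptges, which makes prostaglandin E, rose from 44.4 and 34.2 to 709 and 745 (log2 fold change 4.22, SE 0.17, adjusted p = 0.00181). The library kit did not keep strand, so reads of Ptgs2 and of an overlapping antisense gene could not be told apart. Thromboxane synthase, Tbxas1, rose by a log2 change of 1.13, or 0.14 with equal totals. The constitutive cyclooxygenase Ptgs1 fell from 208 and 237 to 76.4 and 66.9 (log2 fold change -1.63, SE 0.13, adjusted p = 0.00477), and Hpgds, which makes prostaglandin D, fell by 1.6 on the log2 scale. The leukotriene genes Ltc4s, Lta4h and Alox5ap fell as well. Ltc4s, which makes the cysteinyl leukotrienes, fell from 198 and 194 to 27.2 and 28.7 (log2 fold change -2.81, SE 0.069, adjusted p = 0.00107). Alox5, the first enzyme of the branch, did not pass the test (log2 difference -1.35, adjusted p = 0.0977).

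Antigen presentation rose in both classes. Of 11 MHC class II genes, 10 rose and none fell, with a median log2 change of 5.53, and with equal totals 9 rose and none fell. The class II transactivator Ciita rose from 38.6 and 44.2 to 3257 and 3409.8 (log2 fold change 6.33, SE 0.11, adjusted p = 0.000843). The invariant chain Cd74 rose from 6709 and 8337 to 367021 and 406620.0 (log2 fold change 5.69, SE 0.16, adjusted p = 0.00116). The class II chains H2-Ab1 and H2-Aa followed the same course, and H2-Ab1 rose from 898 and 1187 to 85536 and 86298 (log2 fold change 6.38, SE 0.18, adjusted p = 0.00118) while H2-Aa rose from 1618 and 2171 to 85969 and 87366 (log2 fold change 5.53, SE 0.19, adjusted p = 0.00143). Ctss, the protease that degrades the invariant chain, did not reach the fold required (log2 difference 0.43, adjusted p = 0.0159). All 18 class I and immunoproteasome genes rose, with log2 changes between 1.25 and 5.52, and with equal totals 16 of the 18 rose. The peptide transporter Tap1 rose from 289 and 287 to 13229.9 and 13276 (log2 fold change 5.52, SE 0.062, adjusted p = 0.000735). Nlrc5, the transactivator of class I genes, rose from 128 and 126 to 3319.8 and 3092 (log2 fold change 4.65, SE 0.075, adjusted p = 0.000838). B2m, the light chain of class I, was abundant before stimulation and rose from 43158 and 41678 to 343027 and 356368 (log2 fold change 3.04, SE 0.069, adjusted p = 0.000998).

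Of 15 costimulatory and checkpoint genes, 14 rose and 1 fell. Cd40, which receives help from T cells, rose from 83.5 and 81.4 to 89500.4 and 90416 (log2 fold change 10.09, SE 0.063, adjusted p = 0.000643). Cd86, a ligand of the T cell receptor Cd28, rose from 135 and 171 to 7883 and 7647 (log2 fold change 5.67, SE 0.16, adjusted p = 0.00118). Cd274, the inhibitory ligand PD-L1, rose from 1052 and 1025 to 56047 and 59968 (log2 fold change 5.8, SE 0.075, adjusted p = 0.000766). Tnfsf4, the OX40 ligand, was at 0 in both 0 h samples and 679.8 and 621 at 4 h. Havcr2, the inhibitory receptor TIM-3, was the member that went the other way and fell from 302 and 341 to 175 and 170.0 (log2 fold change -0.89, SE 0.097, adjusted p = 0.00883). Among markers of other cells, Klrk1, an activating receptor of NK cells, was at 0 and 1.57 at 0 h and 1931 and 1996 at 4 h, and Clec9a, a receptor of cross-presenting dendritic cells, was at 2.15 and 5.3 at 0 h and 1446 and 1391 at 4 h. The NK cell list, of which 5 genes were analysed here, summed to between 6.4 and 7.43 at 0 h and between 1936 and 1996 at 4 h, nearly all of it Klrk1. The dendritic cell list of 8 genes summed to between 34.6 and 43.8 at 0 h and between 1484 and 1542 at 4 h. Of these lists, Ncr1, Prf1, Klre1, Klrb1c, Flt3, Xcr1, Siglech and Itgae were under 10 in all 4 samples. The dendritic cell factor Zbtb46 was at 3.59 and 1.7 at 0 h and 22.8 and 33.1 at 4 h, Ccr9 at 4.17 and 4.05 at 0 h and 59.9 and 44.9 at 4 h and Cd209a at 19.4 and 27 at 0 h and 0 in both 4 h samples. The part of other cells in these results was not tested.

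Genes that sense LPS and carry its signal moved in both directions. Of 24, 12 rose and 4 fell, and with equal totals 7 rose and 9 fell. Tlr4, the LPS receptor, fell from 802 and 780.1 to 138 and 145 (log2 fold change -2.48, SE 0.069, adjusted p = 0.00118). The endosomal receptor Tlr13, which senses bacterial ribosomal RNA, fell from 1659 and 1626 to 278 and 298 (log2 fold change -2.51, SE 0.075, adjusted p = 0.00125), and Tlr8 fell from 2212 and 2162 to 648 and 489 (log2 fold change -1.96, SE 0.18, adjusted p = 0.00645). Irak4, the first kinase after Myd88, fell by 1.07 on the log2 scale. The LPS co-receptor Cd14, in contrast, rose from 1365 and 1498 to 12065 and 14412 (log2 fold change 3.2, SE 0.13, adjusted p = 0.00192). Tlr1 and Tlr2, which together sense bacterial lipoproteins, moved alike, as Tlr1 rose from 323 and 308 to 3094 and 3156 (log2 fold change 3.31, SE 0.068, adjusted p = 0.000916) and Tlr2 rose from 451 and 486 to 4447 and 4812 (log2 fold change 3.3, SE 0.089, adjusted p = 0.00114). The adaptor Myd88 rose from 877 and 903 to 8008 and 8219.5 (log2 fold change 3.19, SE 0.066, adjusted p = 0.000911). The other adaptors, Ticam1, Ticam2 and Tirap, and the Tlr4 partner Ly96 were not called. With equal totals Ticam2, Tirap and Ly96 turned negative and were called lower, at log2 changes of -0.79, -0.93 and -0.71.

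NF-κB subunits rose along with their inhibitors. Of 17 genes, 15 rose and none fell, and with equal totals 14 rose and 2 fell. The inhibitor Nfkbia rose from 1535 and 1809 to 69590.2 and 76182 (log2 fold change 5.45, SE 0.13, adjusted p = 0.00103), which put it above every subunit in coverage at 4 h. The atypical inhibitor Nfkbiz, which is needed for secondary response genes, rose from 142 and 146 to 15515 and 16793 (log2 fold change 6.81, SE 0.08, adjusted p = 0.000737). Tnfaip3, the deubiquitinase A20, rose from 410.1 and 356 to 37282 and 39160.3 (log2 fold change 6.64, SE 0.11, adjusted p = 0.000838). Among the subunits, Nfkb2 rose from 626 and 682 to 15217 and 15098 (log2 fold change 4.54, SE 0.08, adjusted p = 0.000843). Nfkb1 rose from 965 and 1183 to 17403 and 17343 (log2 fold change 4.02, SE 0.14, adjusted p = 0.00143), and Rela, the main activating subunit, rose from 1170.4 and 1177 to 6101 and 6515 (log2 fold change 2.43, SE 0.073, adjusted p = 0.00125). The kinase subunits Chuk and Ikbkg were not called. With equal totals both turned negative and were called lower, at log2 changes of -0.77 and -0.95.

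Feedback genes of other pathways rose in most cases. Of 17 SOCS, DUSP and mRNA-decay genes, 12 rose and 3 fell, and with equal totals 11 rose and 4 fell. Socs1, which inhibits the JAK kinases, rose from 3.13 and 2.19 to 5144 and 5941 (log2 fold change 10.99, SE 0.23, adjusted p = 0.000926). Socs3, which inhibits IL6 signalling, rose from 24 and 21.9 to 27483 and 27571 (log2 fold change 10.22, SE 0.083, adjusted p = 0.000643). The MAP kinase phosphatases did not move alike, since Dusp2 rose from 142 and 83.6 to 18477 and 20043 (log2 fold change 7.46, SE 0.33, adjusted p = 0.00203) whereas Dusp6 fell from 275 and 258 to 82.7 and 72.1 (log2 fold change -1.78, SE 0.11, adjusted p = 0.00327). The 3 members of the Zfp36 family, which bind AU-rich elements and promote mRNA decay, also differed. Zfp36 rose from 75.2 and 91.6 to 832 and 873 (log2 fold change 3.36, SE 0.14, adjusted p = 0.00182). Zfp36l2 fell from 3013 and 2953 to 631 and 843 (log2 fold change -2.03, SE 0.18, adjusted p = 0.00632), and Zfp36l1 fell by 1.71 on the log2 scale.

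Transcription factors of the interferon system rose, and immediate-early factors were mixed. Of 18 IRF, STAT and BATF genes, 16 rose and none fell, and with equal totals 13 rose and 2 fell. Batf2, a partner of Irf1, rose from 37.4 and 18.1 to 5629 and 7210.0 (log2 fold change 7.93, SE 0.46, adjusted p = 0.00302). Irf7, the amplifier of type I interferon, rose from 151 and 154 to 23666 and 22741 (log2 fold change 7.25, SE 0.067, adjusted p = 0.000643). Irf1 rose from 509 and 526 to 26644 and 29836 (log2 fold change 5.77, SE 0.093, adjusted p = 0.000838). Irf3, the factor that LPS activates through Ticam1, did not reach the fold required (log2 difference -0.56, adjusted p = 0.0106). Stat6, the factor of IL4 signalling, did not pass the test (log2 difference -0.38, adjusted p = 0.0502). Of 28 AP-1, EGR and other immediate-early genes, 21 rose and 5 fell, and with equal totals 17 rose and 6 fell. Nr4a3, an orphan nuclear receptor, rose from 2.88 and 2.69 to 1205 and 1266 (log2 fold change 8.74, SE 0.079, adjusted p = 0.000643). Hif1a, which drives the hypoxia programme, rose from 1074 and 1129 to 9487 and 9245 (log2 fold change 3.09, SE 0.07, adjusted p = 0.001). The AP-1 subunit Junb rose from 1415 and 1559 to 27818 and 29306 (log2 fold change 4.26, SE 0.09, adjusted p = 0.000926), but Jun and Fos were among the 5 that fell, with Egr2, Klf10 and Myc. Egr2 fell from 316 and 243 to 69.9 and 66.8 (log2 fold change -2.02, SE 0.17, adjusted p = 0.0056), and Myc, which drives growth, fell from 170.2 and 151 to 51.7 and 71.9 (log2 fold change -1.39, SE 0.22, adjusted p = 0.0185).

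Inflammasome genes divided by sensor. Of 15, 9 rose and 5 fell, and with equal totals 7 rose and 6 fell. Nlrp3, the sensor of membrane damage and potassium loss, rose from 292 and 334 to 13171 and 13418 (log2 fold change 5.41, SE 0.1, adjusted p = 0.000879). Mefv, which encodes pyrin, rose from 117 and 138 to 5202 and 5150.1 (log2 fold change 5.34, SE 0.12, adjusted p = 0.000966). Casp4, which binds cytosolic LPS, rose from 308 and 272 to 6458 and 6333 (log2 fold change 4.47, SE 0.096, adjusted p = 0.000942). The effectors also rose, as Casp1 rose from 1039 and 1032 to 6216 and 5999 (log2 fold change 2.56, SE 0.065, adjusted p = 0.00108) and Gsdmd, which forms the pyroptotic pore, rose from 1069.8 and 1136 to 4739.7 and 4680.5 (log2 fold change 2.1, SE 0.071, adjusted p = 0.00143). The sensors Nlrp1b, Nlrp1a, Naip5 and Nlrc4, in contrast, had log2 changes between -1.9 and -0.92 and were all called lower, as was Gsdme, another gasdermin, at -2.04. Of 23 survival and death genes, 17 rose and none fell, with 12 up and 4 down with equal totals. Bcl2a1a, a survival gene of the BCL2 family, rose from 387 and 356 to 11231 and 11540.3 (log2 fold change 4.94, SE 0.08, adjusted p = 0.000838). The Bcl2a1 genes are near-identical copies whose reads may be divided between them. The caspase inhibitor Cflar rose from 877 and 941 to 24969 and 25099 (log2 fold change 4.78, SE 0.075, adjusted p = 0.000825). Mlkl, the executioner of necroptosis, rose from 156 and 125 to 2971 and 3134 (log2 fold change 4.45, SE 0.15, adjusted p = 0.00141).

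Genes of resting macrophage identity moved in both directions. Of 23, 6 rose and 8 fell, with a median log2 change of -0.28, and with equal totals 4 rose and 16 fell. Csf1r, the M-CSF receptor, did not pass the test (log2 difference -0.14, adjusted p = 0.196). The largest fall was in Cd163, the receptor for haemoglobin complexes, which was low before stimulation and fell from 29.5 and 26.4 to 0.556 and 0.436 (log2 fold change -5.56, SE 0.15, adjusted p = 0.00114). Cebpa, a myeloid transcription factor with much higher coverage, fell from 5839 and 4806 to 215 and 246 (log2 fold change -4.52, SE 0.15, adjusted p = 0.00143). The mannose receptor Mrc1 fell from 826 and 672 to 75.7 and 53.5 (log2 fold change -3.55, SE 0.25, adjusted p = 0.00404). Pparg, a lipid-sensing nuclear receptor, fell from 741 and 519 to 84.4 and 64.6 (log2 fold change -3.07, SE 0.27, adjusted p = 0.00613). Gas6, which bridges dead cells to phagocytes, fell from 3355 and 3429 to 218 and 241 (log2 fold change -3.89, SE 0.088, adjusted p = 0.001), while its receptor Axl rose from 835 and 807 to 5317 and 4796 (log2 fold change 2.62, SE 0.089, adjusted p = 0.00143). The complement genes C1qa, C1qb and C1qc rose by log2 changes between 1.7 and 1.98. Of 17 scavenger, Fc and phagocytic receptors, 7 rose and 3 fell, and with equal totals 6 rose and 10 fell. Clec4e, which recognises mycobacterial glycolipid, rose from 450.3 and 724 to 65614 and 74656 (log2 fold change 6.94, SE 0.3, adjusted p = 0.00201). Fcgr1, the high-affinity IgG receptor, rose from 977 and 919.6 to 7344 and 6648 (log2 fold change 2.88, SE 0.093, adjusted p = 0.00135), and the scavenger receptor Stab1 fell from 3867 and 4139.9 to 594 and 633 (log2 fold change -2.71, SE 0.083, adjusted p = 0.00129). Clec7a was not analysed here.

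**Figure D4:**
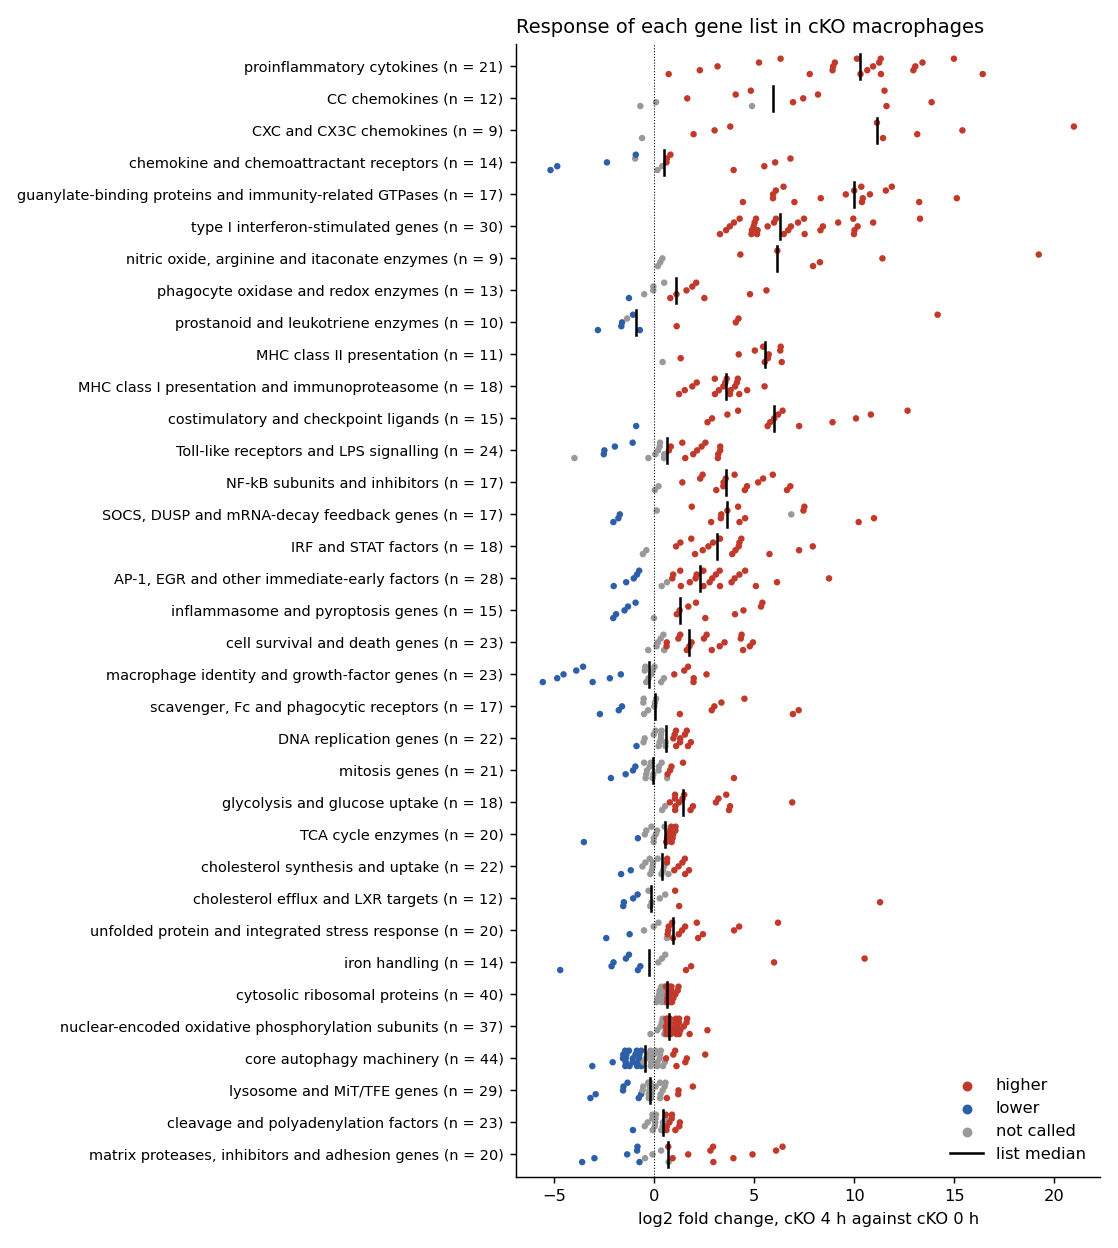
Fitted log2 fold change (4 h against 0 h, x axis) of every tested gene in 35 lists in cKO macrophages; points are genes coloured by call, the bar is the list's median, and values of genes listed at 0 in a group rest on the pseudocount. All members of the cytokine, GBP and GTPase, type I interferon and MHC class I lists rose, while the medians of the autophagy, lysosome and macrophage identity lists lay at -0.47, -0.18 and -0.28.

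Lysosomal genes lost share of the coverage, but 18 of 29 were not called. Of the others, 4 rose and 7 fell, and with equal totals 1 rose and 22 fell. Tfeb, the factor that activates lysosomal genes, fell from 942 and 953 to 94.6 and 115 (log2 fold change -3.18, SE 0.13, adjusted p = 0.00191). Its relative Mitf rose from 565 and 571 to 2162 and 2196 (log2 fold change 1.94, SE 0.062, adjusted p = 0.00134), and Tfe3, another relative, did not pass the test (log2 difference -0.15, adjusted p = 0.175). The aspartic protease Ctsd fell from 235461 and 215997 to 76314 and 77719.9 (log2 fold change -1.55, SE 0.081, adjusted p = 0.00256). Atp6v0d2, a subunit of the lysosomal proton pump, fell from 11329 and 8321 to 1339 and 1232 (log2 fold change -2.92, SE 0.2, adjusted p = 0.00391). The genes that move cholesterol out of the lysosome went in opposite directions on the first scale. Npc1 fell from 3326 and 3355 to 1149 and 1167 (log2 fold change -1.53, SE 0.062, adjusted p = 0.00183). Npc2 rose from 15341 and 14535 to 34229 and 35425 (log2 fold change 1.22, SE 0.072, adjusted p = 0.00309). With quantile normalization, another scaling, Npc2 stood at a log2 change of -0.22.

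Autophagy, in which cytoplasm is enclosed and delivered to lysosomes, held more genes that fell than rose. Of 44 core autophagy genes, 7 rose and 21 fell, with a median log2 change of -0.47, and with equal totals 2 rose and 35 fell. The study took up autophagy from these samples, so the list is not independent evidence of a direction. The initiating kinase Ulk1 fell from 558 and 572 to 227 and 257 (log2 fold change -1.23, SE 0.097, adjusted p = 0.00496), and its relative Ulk2 fell from 1166 and 1125 to 424 and 438 (log2 fold change -1.41, SE 0.068, adjusted p = 0.0023). Pik3c3, Uvrag and Atg14 of the lipid kinase complex and Atg5 and Atg7 of the conjugation system also fell. The largest fall was in Plekhm1, which ties autophagosomes to lysosomes and fell from 1845 and 1859 to 195 and 243 (log2 fold change -3.08, SE 0.15, adjusted p = 0.00223). The cargo receptors differed. Nbr1 fell from 1390.3 and 1367 to 311 and 347 (log2 fold change -2.07, SE 0.09, adjusted p = 0.00201), whereas Sqstm1, also known as p62, rose from 8849.6 and 9509.6 to 50977 and 57262 (log2 fold change 2.56, SE 0.1, adjusted p = 0.0018). Optn, another cargo receptor, rose from 448 and 412 to 1327 and 1343 (log2 fold change 1.64, SE 0.079, adjusted p = 0.00234). Besides Sqstm1 and Optn, the members that rose were Atg4d, Tax1bp1, Ambra1, Atg16l1 and Atg9a, of which the last 2 had log2 changes of -0.03 and -0.39 with equal totals. Map1lc3b, which encodes the autophagosome marker LC3B, did not pass the test (log2 difference 0.28, adjusted p = 0.065). With equal totals its direction turned and it was called lower (log2 change -0.71, adjusted p in limma = 0.00625). On the deposited scale it was called lower as well, at -0.67.

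Glycolytic genes rose more often than they fell. Of 18 genes, 16 rose and none fell, and with equal totals 8 rose and 1 fell. Slc2a6, a hexose transporter of the lysosome, rose from 208 and 253 to 26803 and 28098 (log2 fold change 6.9, SE 0.13, adjusted p = 0.000895). The phosphofructokinase Pfkp rose from 552 and 511 to 7617 and 7155 (log2 fold change 3.8, SE 0.085, adjusted p = 0.000998), and the hexokinase Hk2 rose from 334 and 316 to 3913 and 4003 (log2 fold change 3.61, SE 0.071, adjusted p = 0.000897). Slc2a1, the main glucose transporter, rose from 371 and 377 to 3237 and 3142 (log2 fold change 3.09, SE 0.065, adjusted p = 0.000918). Of 20 citrate cycle genes, 10 rose and 2 fell, and with equal totals none rose and 9 fell. The member that moved furthest was Idh1, the cytosolic isocitrate dehydrogenase, which fell from 5435 and 5090.0 to 479 and 447 (log2 fold change -3.51, SE 0.083, adjusted p = 0.00105). Of 37 nuclear-encoded respiratory subunits, 29 rose and none fell, and with equal totals 4 rose and 4 fell. Of 40 ribosomal protein genes, 21 rose and none fell, and with equal totals none rose and 6 fell. Their median log2 changes were 0.76 and 0.63, against -0.24 and -0.36 with equal totals. Ribosomal protein genes have many processed copies, which makes their coverage uncertain.

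Sterol, stress and iron genes were mixed. Of 22 cholesterol synthesis and uptake genes, 8 rose and 2 fell, and with equal totals 1 rose and 11 fell. Dhcr7, a late enzyme of cholesterol synthesis, fell from 402 and 299 to 125 and 98.2 (log2 fold change -1.65, SE 0.24, adjusted p = 0.0152). Of 12 efflux and LXR genes, 3 rose and 4 fell, with 1 and 8 under equal totals. Ch25h, which makes an antiviral oxysterol, stood apart and rose from 2.4 and 0.892 to 4142 and 3777 (log2 fold change 11.29, SE 0.56, adjusted p = 0.00241). The cholesterol exporter Abcg1 fell from 2518 and 2289 to 1219.9 and 1114 (log2 fold change -1.04, SE 0.1, adjusted p = 0.00702). Of 20 unfolded protein and integrated stress genes, 14 rose and 2 fell, with 6 and 5 under equal totals. Nupr1, a stress-induced chromatin protein, rose from 52.7 and 100.3 to 5258 and 5399 (log2 fold change 6.19, SE 0.39, adjusted p = 0.00341), and Ppp1r15a, which reverses the block on translation, rose from 401 and 437 to 6417 and 6979.7 (log2 fold change 4, SE 0.094, adjusted p = 0.00103). The chaperone Hspa5 rose from 5703 and 5588 to 29987 and 31293 (log2 fold change 2.44, SE 0.067, adjusted p = 0.00117). The sensors of the pathway did not rise, since Ern1 fell by 1.22 on the log2 scale and Eif2ak3 fell from 235 and 248 to 46.5 and 45.6 (log2 fold change -2.39, SE 0.07, adjusted p = 0.00124), while Atf6 was not called. Of 14 iron genes, 4 rose and 7 fell, with 3 and 9 under equal totals. Slc40a1, the iron exporter ferroportin, fell from 4099 and 3898 to 149.6 and 160.4 (log2 fold change -4.69, SE 0.08, adjusted p = 0.000843). Hamp, the hormone that triggers its degradation, was at 0 in both 0 h samples and 164 and 131 at 4 h. Tfrc, which takes up transferrin iron, fell from 5969 and 5056 to 1284 and 1239 (log2 fold change -2.12, SE 0.12, adjusted p = 0.00284).

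Cell cycle genes had median log2 changes of 0.57 for DNA replication and -0.08 for mitosis. Of 22 replication genes, 10 rose and 1 fell, and with equal totals 3 rose and 8 fell. Of 21 mitosis genes, 5 rose and 4 fell, and with equal totals 1 rose and 14 fell. Mki67, the proliferation marker Ki-67, stood apart from its list and rose from 262 and 269 to 4138 and 4304 (log2 fold change 3.99, SE 0.068, adjusted p = 0.000843). The mitotic kinase Plk1, in contrast, fell from 39.6 and 42.6 to 17.2 and 13.5 (log2 fold change -1.42, SE 0.16, adjusted p = 0.0097), and the centromeric histone Cenpa fell from 375 and 378 to 75 and 95 (log2 fold change -2.16, SE 0.15, adjusted p = 0.0042). Of 20 matrix protease and adhesion genes, 10 rose and 6 fell, with 8 and 8 under equal totals. The collagenase Mmp13 rose from 173 and 125 to 13337 and 11889.5 (log2 fold change 6.42, SE 0.22, adjusted p = 0.00143). Mmp12, the macrophage elastase, fell from 21331 and 15293 to 2331 and 2248 (log2 fold change -2.98, SE 0.21, adjusted p = 0.00404), and the neutrophil collagenase Mmp8 fell from 870.0 and 908 to 69.9 and 77.4 (log2 fold change -3.59, SE 0.091, adjusted p = 0.00108).

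Genes of 3′ end processing, the machinery to which Nudt21 belongs, stayed within log2 changes of -1.05 and 1.29. Of 23, 9 rose and 1 fell, and with equal totals none rose and 11 fell. The coverage that Nudt21 kept was higher at 4 h (log2 fold change 0.59, SE 0.14, adjusted p = 0.0447) but stood at a log2 change of -0.41 with equal totals. Its partners in cleavage factor I are Cpsf6 and Cpsf7. Cpsf6 was at 1783 and 1703 at 0 h and 2313 and 2425 at 4 h and did not reach the fold required (log2 difference 0.44, adjusted p = 0.0204). Cpsf7 was at 541 and 608 at 0 h and 1019 and 1096 at 4 h, a log2 change of 0.88 that became -0.11 with equal totals. Papolg, a nuclear poly(A) polymerase, was the member that went the other way and fell from 221 and 245 to 118 and 106 (log2 fold change -1.05, SE 0.11, adjusted p = 0.00794).

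The response of the cKO cells was set beside that of the WT cells in a fit to all 8 samples, to ask where stimulation acted differently without Nudt21. Values in this comparison are on the scale of that fit, and a difference is the log2 change in cKO minus that in WT. Over the 12860 genes above 0 in all 8 samples, the log2 changes of the genotypes had Pearson's r = 0.924 and Spearman's rho = 0.893 across genes, which are not independent replicates. In a separate fit to the 4 WT samples alone, with the same fold and p required, 3894 of 15812 genes rose (24.6%) and 3938 fell (24.9%), or 49.5% in all. These WT counts were less stable, with 1149 to 2793 rises and 1056 to 3302 falls when 1 sample was left out, and 1848 rises and 8056 falls with equal totals. The difference was under 1 in size in 75.3% of 16125 genes. It passed an adjusted p under 0.05 in 478 genes, or 2.96%, with a more positive change in cKO in 294 (1.82%) and a more negative change in 184 (1.14%). The count rested heavily on single samples. It was 170 and 154 without cKO 0 h replicates 3 and 4, 294 and 223 without cKO 4 h replicates 3 and 4, 279 and 245 without WT 0 h replicates 1 and 2, and 536 and 688 without WT 4 h replicates 1 and 2. With replicate number as a block 28 genes passed, and 288 of the 478 were above 0 in all 8 samples. In the 35 lists 31 of 697 genes passed, against 2.96% of all genes.

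By the rule for named genes, the 10 most positive differences were those of A830012C17Rik, Gm15996, Tmem151a, Ifit1bl1, Gm4473, 8430430B14Rik, Gm36972, Gsta3, Rnf227 and Gm15156. The 10 most negative were those of Trav15d-3, Gm43650, Gm46447, 2810408I11Rik, Lrrc14b, Otor, Gm31373, Gm30214, Gm46189 and Klrd1. All but 2810408I11Rik were listed at 0 in at least 1 sample. Ifit1bl1, a member of the interferon-induced Ifit family, was at 0 in both 0 h samples and 541 and 552 at 4 h in cKO and at 4.79 and 9.54 at 0 h and 254 and 209 at 4 h in WT, so that cKO was lower before and higher after stimulation. The genes named next were chosen after their values were seen, among those above 0 in all 8 samples. The adhesion receptor Adgre4 was at 79.4 and 92.1 at 0 h and 127 and 149 at 4 h in cKO and 158 and 197 at 0 h and 15.7 and 13.5 at 4 h in WT (difference 4.27, SE 0.24, adjusted p = 0.00315). Its level at 4 h was thus above that at 0 h in cKO and below it in WT, although with equal totals its log2 change in cKO was -0.27. Complement factor B, Cfb, was at 10.9 and 6.73 at 0 h and 21706 and 22422 at 4 h in cKO and 32.3 and 33.6 at 0 h and 12920.3 and 9447 at 4 h in WT (difference 2.93, SE 0.38, adjusted p = 0.0336). The stress cytokine Gdf15 was at 401 and 363 at 0 h and 1789 and 2686 at 4 h in cKO and 232 and 169 at 0 h and 194 and 129.9 at 4 h in WT (difference 2.84, SE 0.44, adjusted p = 0.0467), with WT samples that overlapped between the times. Of 17 alternatives Adgre4 passed in 16, Cfb in 10 and Gdf15 in 5. With replicate number as a block their adjusted p in limma was 0.0884, 0.173 and 0.163.

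Of the inflammatory lists, few members passed this test, as was true of all genes, of which 2.96% passed. Of 21 cytokines 1 passed, Csf2, which was at 0 in both 0 h samples and 211 and 266 at 4 h in cKO and 0 in both 0 h samples and 37.4 and 28.6 at 4 h in WT (difference 2.85, SE 0.25, adjusted p = 0.0123). Of 30 type I interferon genes 1 passed, Ifi44, which was at 1.42 and 1.69 at 0 h and 1813 and 1893 at 4 h in cKO and 8.77 and 10.4 at 0 h and 2358 and 2052 at 4 h in WT (difference 2.3, SE 0.21, adjusted p = 0.0126). The genotypes thus differed in Csf2 after stimulation and in Ifi44 mainly before it. Of 17 GBPs and GTPases Gbp2b passed (difference -0.95, SE 0.13, adjusted p = 0.038), of 12 CC chemokines Ccl12 (difference -1.84, SE 0.18, adjusted p = 0.0174) and, of 9 nitric oxide and itaconate genes, Nos2 (difference 0.84, SE 0.11, adjusted p = 0.0354). Gbp2b, Ccl12 and Nos2, like Csf2, were at 0 in every 0 h sample of both genotypes. Their differences therefore rest on the 4 h samples alone, and the 0 h samples add no spread to the SE and p. None of the MHC class I and II, NF-κB, IRF and STAT, inflammasome and glycolysis members passed. With 2 samples per group, a gene that did not pass was not shown to respond alike. At 4 h the 42 cytokine and chemokine genes took 13.5% and 10.4% of the summed coverage in WT and 9.08% and 9.41% in cKO. The 9 CXC and CX3C chemokines among them overlapped between the genotypes. The 9 nitric oxide and itaconate genes went the other way, with 1.22% and 1.2% in WT and 1.48% and 1.48% in cKO. These shares were not tested.

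**Figure D5:**
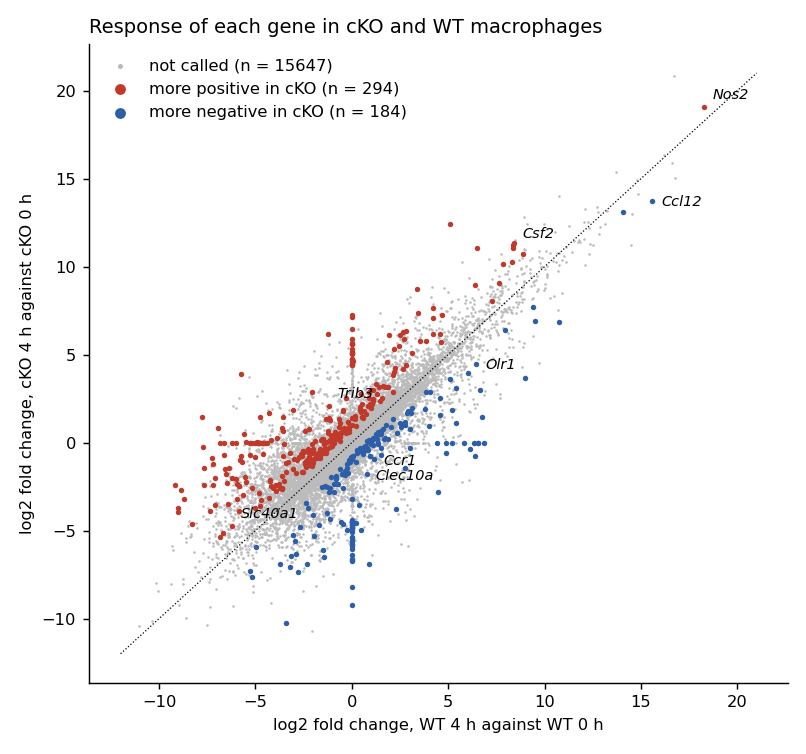
Fitted log2 fold change (4 h against 0 h) of each of 16125 genes in WT (x axis) and cKO (y axis) macrophages, with genes whose response differed at an adjusted p under 0.05 in colour and equal responses on the dotted line. Most genes lie near the line; points at exactly 0 on 1 axis are genes listed at 0 in all samples of that genotype.

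The 31 list members that differed were spread over 17 lists, with at most 5 in any 1 list. Trib3, a pseudokinase induced by the integrated stress response, was at 23.8 and 24.9 at 0 h and 95.3 and 116 at 4 h in cKO and 38 and 35.4 at 0 h and 16.1 and 15.8 at 4 h in WT (difference 3.3, SE 0.17, adjusted p = 0.00234). Sesn2, a stress-induced regulator of growth signalling, was at 197 and 188 at 0 h and 128 and 138 at 4 h in cKO and 242 and 264 at 0 h and 45.3 and 43.6 at 4 h in WT (difference 1.97, SE 0.13, adjusted p = 0.00528). Both stood higher in cKO than in WT at 4 h and lower at 0 h. Asns, which makes asparagine, differed in the same direction (difference 1.11, SE 0.16, adjusted p = 0.0395), and Edem1 of the same list of 20 in the other (difference -0.82, SE 0.13, adjusted p = 0.0466). Of 13 redox genes, Srxn1 (difference 2.32, SE 0.22, adjusted p = 0.0163) and Gclm (difference 1.47, SE 0.23, adjusted p = 0.0496) passed, both more positive in cKO. The receptor Ccr1 was at 756 and 564 at 0 h and 370.0 and 309 at 4 h in cKO and 625 and 679 at 0 h and 1472 and 1467 at 4 h in WT (difference -2.12, SE 0.25, adjusted p = 0.0263). The oxidised lipid receptor Olr1 was at 15.8 and 12.4 at 0 h and 334 and 296 at 4 h in cKO and 15.8 and 15.6 at 0 h and 1333 and 1446 at 4 h in WT (difference -1.98, SE 0.21, adjusted p = 0.0201). Tlr4 was at 753 and 731 at 0 h and 127 and 132 at 4 h in cKO and 521 and 589 at 0 h and 226 and 225 at 4 h in WT (difference -1.22, SE 0.13, adjusted p = 0.0217). For each of these 3 receptors, the 4 h coverage of every cKO sample was below that of every WT sample. Ferroportin, Slc40a1, was at 3847 and 3654 at 0 h and 138 and 146 at 4 h in cKO and 3783 and 3837 at 0 h and 52.5 and 49.2 at 4 h in WT (difference 1.5, SE 0.12, adjusted p = 0.00967), and its 4 h level was higher in cKO.

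Over all genes 2.96% passed the test of the difference, 1.82% with a more positive change in cKO. Of 44 autophagy genes 3 passed, Ulk1, Atg2a and Map1lc3b, all more positive in cKO. These calls were not stable: of 17 alternatives Ulk1 passed in 4, Atg2a in 7 and Map1lc3b in 9, and with replicate number as a block their adjusted p in limma was 0.199, 0.19 and 0.186. Ulk1 was at 524 and 536 at 0 h and 209 and 234 at 4 h in cKO and 536 and 591 at 0 h and 124 and 120.3 at 4 h in WT (difference 0.94, SE 0.14, adjusted p = 0.0462). Map1lc3b was at 1281 and 1184 at 0 h and 1440.3 and 1479.6 at 4 h in cKO and 1281 and 1247 at 0 h and 799 and 731 at 4 h in WT (difference 0.97, SE 0.13, adjusted p = 0.0354). The genotypes overlapped in both genes at 0 h, and at 4 h neither cKO sample fell within the WT values, which were lower. The study reports a shorter 3′ untranslated region of Map1lc3b in cKO cells, and its part in this difference was not tested.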

How the data were processed

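RNA-seq was done on 8 samples, 2 per genotype and time. The deposited values are mean coverage per base of each gene, a signal that the authors made with HISAT2 2.2.1 and StringTie 2.1.7 on GRCm38 (mm10), per the submitters' processing notes; the 2 tables, 1 per time, were joined by gene symbol. The authors' own fold changes and p-values were not used. Coverage was divided by median-of-ratios factors, genes with a mean scaled coverage of at least 0.5 were kept, and log2(coverage + 0.1) was fitted with limma 3.58.1 in R 4.3.3, on the 4 cKO samples for the response and on all 8 for the difference between genotypes. Fold changes are on that scale and understate changes of low genes. Calls needed a fold above 1.5 and a Benjamini-Hochberg adjusted p under 0.05 (differences between genotypes, the p alone). Named genes were Nudt21 and its partners, the 15 largest rises and falls and the 10 largest differences each way with coverage of at least 10, and in each list the largest, defining or opposing members; some are not reported here. Members and lists were chosen with earlier results of these data known. Scripts were tested on simulated data with 188 changed genes, far fewer than were called in cKO. At a simulated log2 change of 1, 0% of them were called, and at 2 it was 55.9%. A gene that was not called is therefore not shown to be unchanged. Alternatives were other scalings, pseudocounts and filters, an intensity trend, a replicate block, all 8 samples in the fit, unadjusted p, left-out samples and, chosen after seeing the data, genes above 0 in every sample and unadjusted p for the differences between genotypes.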

Additional observations from a re-analysis of the deposited data

Results flagged for a closer look

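The response to IFNγ/LPS differed between cKO and WT macrophages, by limma's test of the difference at an adjusted p under 0.05, in 31 of the 697 list members. Over all genes 2.96% passed. Csf2, Ccl12, Gbp2b and Nos2 were at 0 in every 0 h sample, so that their differences rest on the 4 h samples alone. The values here are the log2 change in cKO minus that in WT. Among attractants, receptors and interferon genes the difference was 2.85 in Csf2, -1.84 in Ccl12, -2.12 in Ccr1, -0.95 in Gbp2b and 2.3 in Ifi44. Among sensors, costimulatory and survival genes it was 0.88 in Tlr3, -1.22 in Tlr4, -0.99 in Cd80, -0.96 in Havcr2 and -1.01 in Bcl2l1. Among scavenger, lectin and Fc receptors it was -1.98 in Olr1, 1.18 in Stab1, -1.34 in Clec4a2, -2.56 in Clec10a and -0.81 in Fcgr3. Among enzymes and redox genes it was 0.84 in Nos2, 1.47 in Gclm, 2.32 in Srxn1 and -0.83 in Alox5ap. Among stress, iron and autophagy genes it was -0.82 in Edem1, 3.3 in Trib3, 1.11 in Asns, 1.97 in Sesn2, 1.5 in Slc40a1, 0.94 in Ulk1, 1.07 in Atg2a and 0.97 in Map1lc3b. In the remaining lists it was -1.01 in Papolg, -0.81 in Adam8, 1.62 in Timp2 and -1.17 in Itgav. All 31 kept their direction under each of 17 alternatives, but none passed with replicate number as a block, and 14 passed in at least 9 of the 17, namely Ccl12, Clec10a, Csf2, Ifi44, Itgav, Map1lc3b, Olr1, Sesn2, Slc40a1, Srxn1, Stab1, Timp2, Tlr4 and Trib3.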

How the results depend on the processing

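In cKO, 2160 genes rose and 8350 fell on the deposited scale and 2100 and 8498 with equal totals, and in WT, where 3894 rose and 3938 fell, 1814 and 8374, and 1848 and 8056. Leaving out 1 sample at a time gave 3301 to 3729 rises and 2544 to 3760 falls in cKO, and 1149 to 2793 rises and 1056 to 3302 falls in WT. With each sample centred on its median over genes, 59.9% of the cKO calls were higher. The 478 differences between the genotypes became 1187 with an intensity trend, 288 among genes above 0 in all 8 samples, an alternative chosen after seeing the data, and 154 to 688 without 1 sample. Whether samples of a genotype with the same number at both times came from the same pool of mice is not given in the sources used here, and they were not treated as pairs. Their deviations from the group means correlated at 0.0224 between the times in cKO and 0.0284 in WT. With replicate number as a block 3813 genes rose and 3596 fell in cKO, 2782 and 2786 in WT, and 28 differed. At an unadjusted p under 0.05, an alternative added after seeing the data for this count alone, 3611 genes differed between the genotypes. The other alternatives run left these counts within 1.5 times. Of the genes named, the following were positive as reported, and were called there or under the alternative, and turned negative. On the deposited scale and with equal totals, in that order, Adgre4 stood at -0.2325 and -0.2711, Atg9a at -0.3503 and -0.3889, Chuk at -0.7302 and -0.7689, Cpsf7 at -0.07174 and -0.1104, Edem1 at -0.2469 and -0.2855, Flt3 at -0.2667 and -0.3036, Ikbkg at -0.915 and -0.9536, Ly96 at -0.6726 and -0.7112, Map1lc3b at -0.6738 and -0.7124, Nudt21 at -0.3669 and -0.4055, Osm at -0.2221 and -0.2607, S100a8 at -0.2895 and -0.3281, Ticam2 at -0.7512 and -0.7898 and Tirap at -0.8918 and -0.9304. With equal totals alone Atg16l1 stood at -0.03042 and Fth1 at -0.5991. With quantile normalization Ctss stood at -0.9437, Edem1 at -0.6138, Npc2 at -0.2213, S100a8 at -0.6529, S100a9 at -0.8263 and Tax1bp1 at -0.1562. The causes were not tested. The read counts behind low genes are not known.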

Other observations

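Several of the largest changes in cKO macrophages fell outside the lists, and the genes named here were chosen after their values were seen. Serpina3g, a protease inhibitor, rose from 6.41 and 1.78 to 17980.3 and 15908 (log2 fold change 12.24, SE 0.75, adjusted p = 0.00326), and its neighbour Serpina3f was at 0 in both 0 h samples and 6815 and 6499 at 4 h; these inhibitors are close in sequence, so that reads could be divided between copies. Upp1, which breaks down uridine, rose from 4.28 and 1.92 to 9633 and 9256 (log2 fold change 11.63, SE 0.47, adjusted p = 0.00181). Mir155hg, the host transcript of an inflammatory microRNA, was at 0 in both 0 h samples and 1106 and 901 at 4 h. Among genes that fell, Angptl4, an inhibitor of lipoprotein lipase, fell from 223 and 189 to 3.06 and 3.12 (log2 fold change -6.01, SE 0.12, adjusted p = 0.000892). Lpin1, a phosphatidic acid phosphatase, fell from 368 and 346 to 4.95 and 7.92 (log2 fold change -5.81, SE 0.29, adjusted p = 0.00239). The organic anion transporter Slco2b1 fell from 158 and 101 to 2.6 and 1.51 (log2 fold change -5.93, SE 0.41, adjusted p = 0.00399). All of these genes had samples that did not overlap between the times.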
